A study of Mus musculus with 5 samples.

Results

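Lymphatic endothelial cells were a rare class among the sorted lung cells, 206 of 29500 cells that passed the filter on quality. A cell was placed in this class where at least 2 UMIs (unique molecular identifiers, which count captured RNA molecules) of *Mmrn1*, *Prox1* and *Reln* were found from at least 2 of these genes, or at least 4 UMIs in all. A cell was left out where it held any UMI of *Epcam*, *Pdgfra*, *Pdgfrb* or *Ptprc*, or more than 1 UMI of the capillary genes *Gpihbp1* and *Car4*. The cells were thus chosen by the measured UMIs of these genes, whose values are a description and support nothing below. The data are droplet counts from lungs of adult mice on a C57BL/6 background, sorted for viable cells without the immune marker CD45 and the red cell marker Ter119. The 5 libraries were Itgb1 fl/fl mice 7 days after LPS (bacterial lipopolysaccharide given into the trachea), Itgb1 iKO mice 7 days after LPS, Itgb1 iKO mice 7 days after PBS, and Itgb1 fl/fl and Itgb1 iKO mice 21 days after LPS. Both genotypes carried floxed *Itgb1* and were given doxycycline. Itgb1 fl/fl mice were littermates. Only Itgb1 iKO mice also carried SP-C rtTA and Tet-O-Cre, which delete *Itgb1* in alveolar type 2 (AT2) epithelial cells and are not meant to act in endothelium. Day 21 suspensions were enriched for EPCAM-positive cells. PBS-treated Itgb1 fl/fl lungs were not analysed here. The mice of a condition were pooled in 1 library, so library and condition cannot be told apart. In each library 3 hashtag antibodies were in use, and the cells of 1 hashtag are called a mouse here.

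Lymphatic endothelium lines the vessels that drain fluid and leukocytes from tissue. PROX1 is the transcription factor that sets and keeps its identity, the receptor VEGFR-3 (*Flt4*) and its ligand VEGF-C drive its growth, and the chemokine CCL21 (*Ccl21a*) guides dendritic cells and lymphocytes that carry the receptor CCR7 into its vessels. Blind-ended capillaries take up fluid through loose, button-like junctions, and collecting vessels with valves carry it away. In the lung these vessels run along airways, veins and septa and keep the airspaces free of excess fluid.

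The 206 cells were 107 in the Itgb1 fl/fl and 62 in the Itgb1 iKO library at day 7 after LPS, 5 in the PBS library, and 22 and 10 in the Itgb1 fl/fl and Itgb1 iKO libraries at day 21. They held 394386, 218559, 10240, 48358 and 21031 UMIs in that order, with a median of 3094, 2551.5, 1787, 2017 and 1824.5 UMIs a cell. Across the libraries, 442 cell barcodes occurred in more than 1 library, and none of them was a lymphatic cell in both. Of the kept cells, 18 of the 206 stood just inside the limit with 2 or 3 UMIs of the gate genes, and 5 libraries together had 8 cells outside it with 2 or 3 UMIs of a single gene. *Ccl21a* was a median of 2.37% and 1.88% of the UMIs of the cells just inside in the day 7 Itgb1 fl/fl and Itgb1 iKO libraries, and 1.7% and 5.43% in those just outside. The limit on capillary genes left out a further 36, 14, 4, 5 and 0 cells, in which *Ccl21a* was a median of 3.79%, 4.45%, 2.61% and 2.87% of UMIs. The kept cells of the same libraries had medians of 4.19%, 4.08%, 5.98% and 4.41%. The left-out cells were thus higher in the day 7 LPS Itgb1 iKO library and lower in the others, most so in the PBS library.

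The start regions of the gate genes and of *Ccl21a*, whose transcripts occurred together in these cells, are shown as the 250 bases before the RefSeq start on build GRCm38.p6, read along the gene's strand. Capitals mark every match, on either strand, to 5 short motifs. ACAAT is the core bound by SOX factors such as SOX18. The letters CCGGAA are bound by the ETS family, which is active in all endothelium. GATA factors bind AGATAA, and nuclear receptors such as COUP-TFII bind the AGGTCA site. The TATA box was searched as TATAAA.
Mmrn1 (chr6:60944067-60944316, plus strand): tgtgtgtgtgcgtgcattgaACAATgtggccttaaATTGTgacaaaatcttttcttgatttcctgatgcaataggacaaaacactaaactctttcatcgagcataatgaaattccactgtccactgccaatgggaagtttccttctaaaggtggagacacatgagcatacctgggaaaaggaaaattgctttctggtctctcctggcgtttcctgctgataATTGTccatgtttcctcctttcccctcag
Prox1 (chr1:190170828-190171077, minus strand, the first of 2 starts in the table): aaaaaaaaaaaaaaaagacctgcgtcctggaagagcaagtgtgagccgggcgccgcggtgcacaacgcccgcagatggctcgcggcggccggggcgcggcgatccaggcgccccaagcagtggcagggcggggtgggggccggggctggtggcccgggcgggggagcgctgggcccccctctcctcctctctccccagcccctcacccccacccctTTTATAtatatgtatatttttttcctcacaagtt
Reln (chr5:22344706-22344955, minus strand): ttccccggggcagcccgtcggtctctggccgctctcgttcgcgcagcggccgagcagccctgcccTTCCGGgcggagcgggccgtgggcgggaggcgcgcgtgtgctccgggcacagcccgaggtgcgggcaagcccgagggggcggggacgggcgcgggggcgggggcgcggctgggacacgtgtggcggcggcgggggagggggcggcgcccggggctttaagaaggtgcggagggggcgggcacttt
Ccl21a (chr4:42773992-42774241, minus strand): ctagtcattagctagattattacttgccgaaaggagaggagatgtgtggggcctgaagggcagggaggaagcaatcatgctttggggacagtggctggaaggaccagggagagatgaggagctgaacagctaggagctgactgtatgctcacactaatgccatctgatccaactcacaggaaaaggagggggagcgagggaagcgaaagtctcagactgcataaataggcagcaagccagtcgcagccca
The 4 windows shared no marked motif. *Mmrn1* held 3 ACAAT matches, at 230, 215 and 29 bases before the start, letters found in 27.7% of 32851 RefSeq windows of the same length. *Reln* held 1 CCGGAA match, found in 12% of windows, in a sequence of 80% G and C. *Prox1* held 1 TATAAA match 34 bases before the start, found in 12.4% of windows, and *Ccl21a* held none of the 5 motifs. AGATAA (9.99% of windows) was in none of the 4. AGGTCA (14% of windows) was in none either. A match is a description of the letters and not a binding site.

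*Ccl21a* was not used to choose the cells and serves as the check of the label. It had at least 1 UMI in all 206 cells. In the 5 libraries it reached 45973, 43023, 46191, 51036 and 39513 CPM (a gene's UMIs scaled to the same total in every class), against 46.8, 41.3, 1.69, 11.8 and 14.9 CPM in capillary endothelial cells. Thus 1 gene made up about as large a share of the RNA in every library of lymphatic cells, and the capillary level lay far below it in each. The cells outside the class still held some of it: 66.9%, 67%, 44.8%, 76.8% and 73% of all *Ccl21a* UMIs of a library were in the gated cells, and the level in capillary cells was lowest in the PBS library, where lymphatic cells held 0.0446% of the UMIs against 1.35% and 0.816% in the day 7 LPS libraries. The part of free RNA in the capillary level was not tested. Among the 206 cells *Ccl21a* ranged from 0.0461% to 13.7% of a cell's UMIs with a median of 4.18%, and 8 cells had fewer than 10 UMIs of it.

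**Figure D1:**
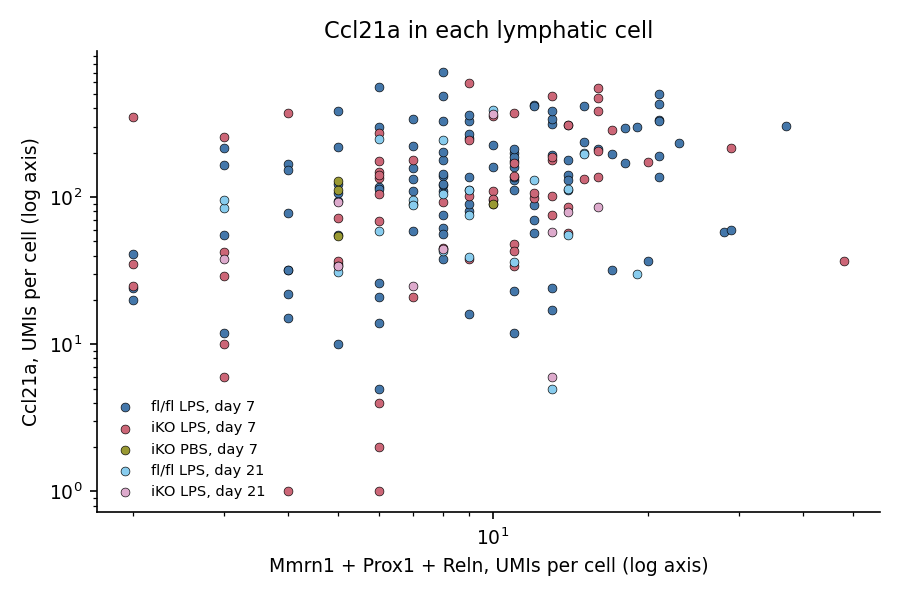
UMIs of Ccl21a against summed UMIs of the 3 gate genes in each of the 206 lymphatic cells, both on log axes, coloured by library. Every cell held Ccl21a, most between 10 and 709 UMIs, also the cells with the fewest gate UMIs, and 8 cells fell under 10 UMIs.

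Marker levels of other lineages differed widely in the class. In the day 7 LPS libraries the platelet markers were at 0 UMIs in lymphatic cells, as were 3 of 4 mesothelial and 4 of 6 immune markers (*Ptprc* by the gate). The 6 venous markers, *Vwf* of the large-vessel gate among them, summed to 43.1 and 4.58 CPM in lymphatic cells and 3176 and 2937 CPM in large-vessel cells. Arterial markers summed to 451 and 393 CPM, against 1336 and 1578 CPM in large-vessel cells. General capillary markers summed to 946 and 851 CPM, against 6739 and 6648 CPM in capillary cells. In the PBS library they were 2832 against 7285 CPM. Aerocyte capillary markers summed to 796 and 810 CPM in the day 7 LPS libraries, against 4387 and 3187 CPM in capillary cells. Epithelial markers, which the gate does not remove apart from *Epcam*, summed to 1993, 3152, 293, 3433 and 17070 CPM in the 5 libraries against 4400, 5616, 1275, 3909 and 17307 CPM in capillary cells, so they were no higher in lymphatic cells than in capillary cells of the same library. Fibroblast markers summed to 284 and 206 CPM in lymphatic cells of the day 7 LPS Itgb1 fl/fl and Itgb1 iKO libraries. Capillary cells had 159 and 270 CPM. By mouse, they summed to 1002 CPM in 1 Itgb1 fl/fl mouse (mouse 1) and to between 17.5 and 348 CPM in the other 5. *Itgb1* checked the genotype labels: in cells with AT2 genes it was 269, 177, 117, 364 and 154 CPM in the 5 libraries, lower in each Itgb1 iKO library than in the Itgb1 fl/fl library of the same day. In lymphatic cells it was 849, 878, 488, 848 and 903 CPM, where the PBS value rests on 5 UMIs with a 95% Poisson interval of 159 to 1139 CPM.

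The share of lymphatic cells was taken over all gated endothelial cells, which also hold capillary cells (*Gpihbp1* or *Car4*) and large-vessel blood endothelial cells (*Vwf*). It was 1.79% (95% Clopper-Pearson interval 1.47 to 2.16) in the day 7 LPS Itgb1 fl/fl library, 1.45% (1.11 to 1.86) in the LPS Itgb1 iKO library and 0.0675% (0.0219 to 0.157) in the PBS Itgb1 iKO library. At day 21 it was 2.13% (1.34 to 3.21) in Itgb1 fl/fl and 1.33% (0.64 to 2.44) in Itgb1 iKO. These intervals cover counting error only. By mouse, the day 7 LPS shares were 1.34%, 1.02% and 1.83% in Itgb1 fl/fl and 0.678%, 0.631% and 2.4% in Itgb1 iKO, and the genotypes overlapped (mean 1.39% ± 0.407 against 1.24% ± 1.01, SD, n = 3 mice each, exact permutation test, two-sided p = 0.8). The PBS mice had 0%, 0% and 0.104%, below every day 7 LPS mouse, where 0 of 2093 cells and 0 of 1956 cells allow shares of up to 0.143% and 0.153%. Against the PBS mice the exact permutation test, two-sided, gave p = 0.1 for both LPS groups, the smallest that 3 against 3 mice can give (Benjamini-Hochberg 0.133 over 4 comparisons). Other cells that are neither immune nor capillary were also scarcer in the PBS library. Cells with at least 2 *Pdgfra* UMIs were 0.715% of all its cells against 3.43% and 5.58% in the LPS Itgb1 fl/fl and Itgb1 iKO libraries, cells with at least 2 *Epcam* UMIs were 0.565% against 4.02% and 6.96%, and capillary cells were 84.3% against 68.5% and 56%. Whether injury, release of cells from the tissue or the library set the low number was not tested. At day 21 only 8 of 22 and 2 of 10 lymphatic cells carried a single hashtag, so the shares by mouse, 1.6%, 1.79% and 0.76% against 0%, 0.433% and 0.562%, rest on 0 to 3 cells each (p = 0.1, exact permutation test, two-sided). Over all cells, day 21 Itgb1 fl/fl mouse 1 held both *Xist* (92.5 CPM) and Y-linked genes (83.2 CPM). Day 21 Itgb1 iKO mouse 2 had 19.7 and 77.2 CPM. A hashtag may therefore not stand for 1 mouse at day 21.

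**Figure D2:**
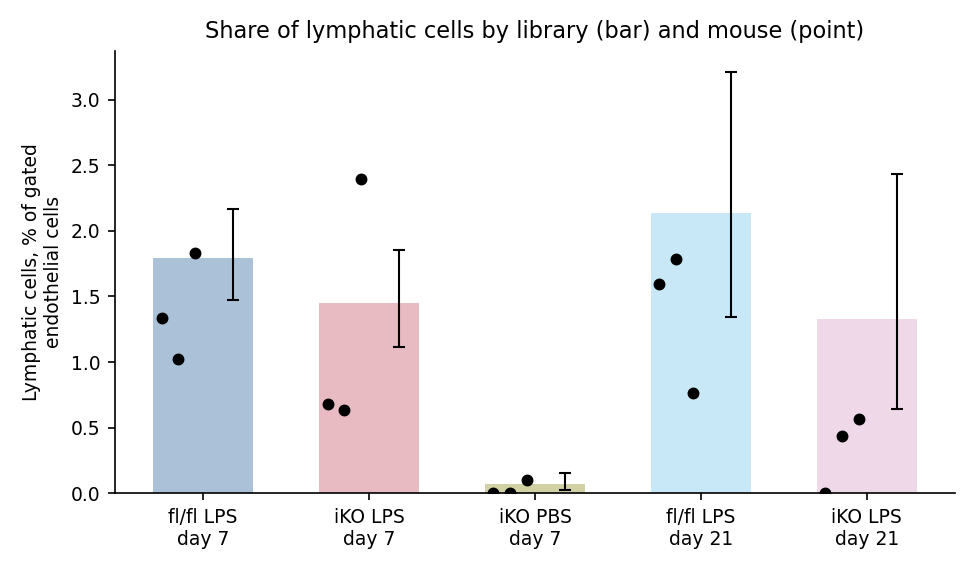
Lymphatic cells as a percentage of gated endothelial cells in each library (bars, with 95% Clopper-Pearson intervals) and in each hashtagged mouse (points). The PBS library lies at 0.0675% and its 3 mice at 0 to 0.104%, while the other 4 libraries lie between 1.33% and 2.13%.

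Lymphatic cells were then compared with blood endothelium of the same mice to describe what goes with the gate. Counts were summed per mouse and class for the 4 day 7 mice with at least 10 lymphatic cells (all 3 LPS Itgb1 fl/fl mice and LPS Itgb1 iKO mouse 3) and tested with edgeR, a gene being called at an adjusted p under 0.05 and at least 2-fold. Over all genes, 6.8% were called higher and 10.4% lower in lymphatic than in capillary cells (17.2% of 10014), and 8.59% higher and 13.1% lower than in large-vessel cells (21.7% of 2340). The classes were cut by genes of the same cells, so these tests do not show that the class exists. They show which other genes differed between the gated cells by more than the spread that edgeR estimated. All 4 epithelial genes tested (*Sftpc*, *Sftpb*, *Sftpa1* and *Scgb1a1*) were called lower in lymphatic than in capillary cells, with a median log2 fold change of -1.19. The 1 immune gene tested, *Lyz2*, was also called lower (-1.04). Of 4 fibroblast genes tested, 1 was called higher and 0 lower. *Sftpc* and *Scgb1a1*, both lower by 1.19, each lost the 2-fold limit without 1 mouse (*Sftpc* -0.97 without Itgb1 fl/fl mouse 1, *Scgb1a1* -0.93 without Itgb1 iKO mouse 3). Falls of about this size were thus also seen for genes of other lineages.

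**Figure D3:**
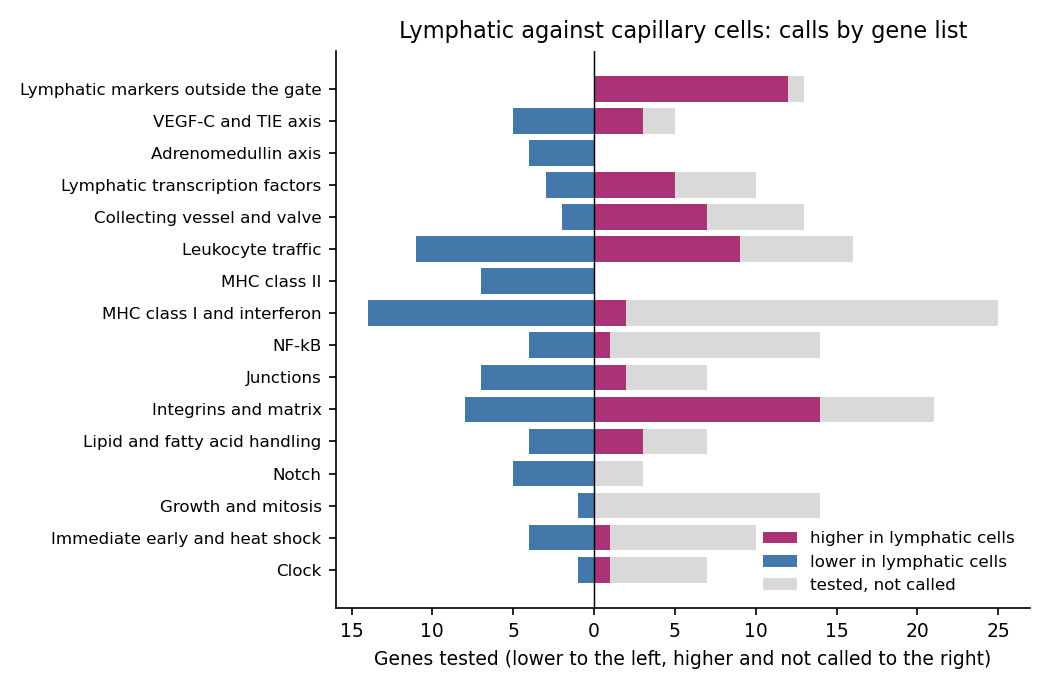
Genes of each list called higher (right, purple), called lower (left, blue) or tested and not called (grey) in lymphatic against capillary cells of 4 day 7 mice, adjusted p under 0.05 and at least 2-fold. Lymphatic markers outside the gate lie almost all on the higher side (12 of 13), while MHC class II (7 of 7) lies on the lower side.

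Of 13 lymphatic markers outside the gate, 12 were called higher than in capillary cells and none lower, with a median log2 fold change of 7.07 against -0.15 over all genes. Against large-vessel cells 10 of 12 tested were called higher. Of all genes, 6.8% were called higher than in capillary and 8.59% higher than in large-vessel cells. *Flt4*, the VEGF-C receptor, was 562, 716 and 629 CPM in the lymphatic cells of the 3 Itgb1 fl/fl mice and 615 CPM in the Itgb1 iKO mouse, against 52.4 to 65.3 CPM in capillary and 23.7 to 52.6 CPM in large-vessel cells. It was higher by 3.26 ± 0.18 (log2 fold change ± SE, adjusted p = 1.35e-69) than in capillary cells and by 4.37 ± 0.32 (adjusted p = 1.29e-12) than in large-vessel cells, and no values overlapped. *Pdpn*, which encodes the mucin-like protein podoplanin, lay at 375 to 506 CPM against 1.11 to 3.56 CPM in capillary cells, and was at 0 UMIs in large-vessel cells (at least 79.2-fold higher, taking 3 counts over the 4 mice as the limit of a count of 0). *Maf*, a transcription factor, was 595 to 1128 CPM against 1.11 to 3.18 CPM (8.78 ± 0.24). *Tbx1*, a T-box factor needed for lymphatic vessel growth, was 157 to 386 CPM against 0.222 to 0.636 CPM (9.08 ± 0.50). *Lyve1*, the hyaluronan receptor widely used to stain lymphatic capillaries, did not separate the class from large-vessel cells. It was 980, 1938, 1737 and 1061 CPM in lymphatic, 448 to 653 CPM in capillary and 1265 to 1475 CPM in large-vessel cells, a difference of 1.25 ± 0.16 from capillary (adjusted p = 7.2e-13) and of 0.01 ± 0.22 from large-vessel cells (adjusted p = 0.977). *Sox18*, which acts upstream of *Prox1* in the embryo, was 310 to 363 CPM in lymphatic and 327 to 467 CPM in capillary cells and was not called (-0.38 ± 0.19, adjusted p = 0.151). *Nts*, encoding the peptide neurotensin, varied most among mice, at 33, 803, 290 and 84.2 CPM, against 0 to 1.35 CPM in capillary cells.

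Of the called genes with at least 100 CPM in the higher class, the 12 with the largest log2 fold changes over capillary cells were *Slc45a3*, *Gm21541*, *Cldn11*, a second *Ccl21c* entry, *Ccl21a*, *Lrrn4cl*, *Stab2*, *Tnfrsf11a*, *Tbx1*, *Hoxd8*, *Fxyd6* and *Gpm6a*. *Slc45a3*, a member of a family of sugar transporters, was 354 to 489 CPM in lymphatic and 0 to 0.444 CPM in capillary cells (10.28 ± 0.42), with 0 UMIs in large-vessel cells. *Fxyd6*, a regulator of the sodium pump, was 657 to 1030 CPM against 0.45 to 2.37 CPM (9 ± 0.24). *Tnfrsf11a*, the receptor RANK, was 69.8 to 220 CPM against 0 to 0.318 CPM (9.10 ± 0.65), and *Stab2*, a scavenger receptor for hyaluronan, was 50.5 to 165 CPM against 0 to 0.225 CPM (9.41 ± 0.63). *Gm21541*, which RefSeq names *Ccl21d* (GRCm38 chr4:41903610-41904743), was 7354 to 12080 CPM against 7.32 to 9.23 CPM. *Ccl21a* (chr4:42772860-42773993) and its copies are nearly identical, so how many reads each one received is uncertain and their separate levels should be read as 1 family. In all 12 the lowest lymphatic mouse lay above the highest capillary mouse, which the choice of the largest changes favours.

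The 12 lowest were *Glp1r*, *Tbx2*, *Edn1*, *Tspan7*, *Trim16*, *Emp2*, *Ly6c1*, *Nostrin*, *Pltp*, *Foxf1*, *Slco2a1* and *Ly6a*. *Glp1r*, the receptor of the gut hormone GLP-1, had 0 UMIs in the lymphatic cells of the 4 mice and 135 to 170 CPM in capillary cells, at least 19.1-fold lower. *Edn1*, the vasoconstrictor endothelin, had 1 lymphatic mouse at 9.99 CPM and the rest at 0, against 112 to 297 CPM in capillary and 52.6 to 285 CPM in large-vessel cells. *Foxf1*, a transcription factor of lung blood vessels, was 8.42 to 105 CPM against 1123 to 1307 CPM in capillary cells (-5.48 ± 0.29) and 740 to 842 CPM in large-vessel cells (-4.63 ± 0.38). *Slco2a1*, the prostaglandin transporter, was 9.99 to 69.8 CPM against 861 to 1118 CPM (-5.41 ± 0.31) and 641 to 897 CPM in large-vessel cells (-4.93 ± 0.36). *Ly6a*, which encodes the surface protein SCA-1, was 42.1 to 176 CPM against 4529 to 5087 CPM (-5.40 ± 0.24). Both *Foxf1* and *Slco2a1* were thus low against capillary and against large-vessel blood endothelium.

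The vascular growth factor receptors divided between the classes. Of 10 genes of the VEGF-C and TIE axis tested, 3 were called higher and 5 lower than in capillary cells (median log2 fold change -1.36 against -0.15 over all genes). The shares over all genes were 6.8% and 10.4%. *Nrp2*, the co-receptor that binds VEGF-C with VEGFR-3, was 914, 1274, 1118 and 1213 CPM in lymphatic cells and 16.7 to 23.2 CPM in capillary cells (5.68 ± 0.19), while *Nrp1*, the co-receptor of VEGF-A and semaphorins, was 0 to 49.9 CPM against 572 to 835 CPM (-5.29 ± 0.33). *Flt1*, a decoy receptor for VEGF-A, was 0 to 20 CPM against 224 to 285 CPM (-4.68 ± 0.41). *Kdr*, encoding VEGFR-2, lay between the blood classes, at 529 to 751 CPM against 717 to 966 CPM in capillary and 209 to 290 CPM in large-vessel cells, and was called higher than in the latter (1.24 ± 0.22, adjusted p = 3.48e-05). *Angpt2*, an angiopoietin that signals through TIE2 in lymphatics, was 120 to 319 CPM against 12.1 to 19.4 CPM in capillary cells (3.36 ± 0.34). Its receptor gene *Tek* was lower (49.9 to 297 CPM against 422 to 568 CPM, -2.13 ± 0.23), as was *Ptprb*, the phosphatase that restrains TIE2 (-2.44 ± 0.21), and *Tie1* was 590 to 694 CPM against 592 to 759 CPM and not called. *Vegfc* itself was found in 1 of the 4 mice, at 11 CPM, against 104 to 255 CPM in large-vessel cells. All 4 tested genes of the adrenomedullin axis, a peptide pathway that lymphatic growth depends on, were called lower than in capillary cells, of which *Ackr3*, a decoy receptor, fell short of 2-fold without Itgb1 fl/fl mouse 3 (-0.95) and was not called without the replicate block (adjusted p = 0.0549). *Calcrl*, the receptor, was 556 to 855 CPM against 2676 to 3361 CPM (-2.26 ± 0.18) and *Ramp2*, its partner, 1201 to 1895 CPM against 4165 to 5492 CPM (-1.70 ± 0.18).

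**Figure D4:**
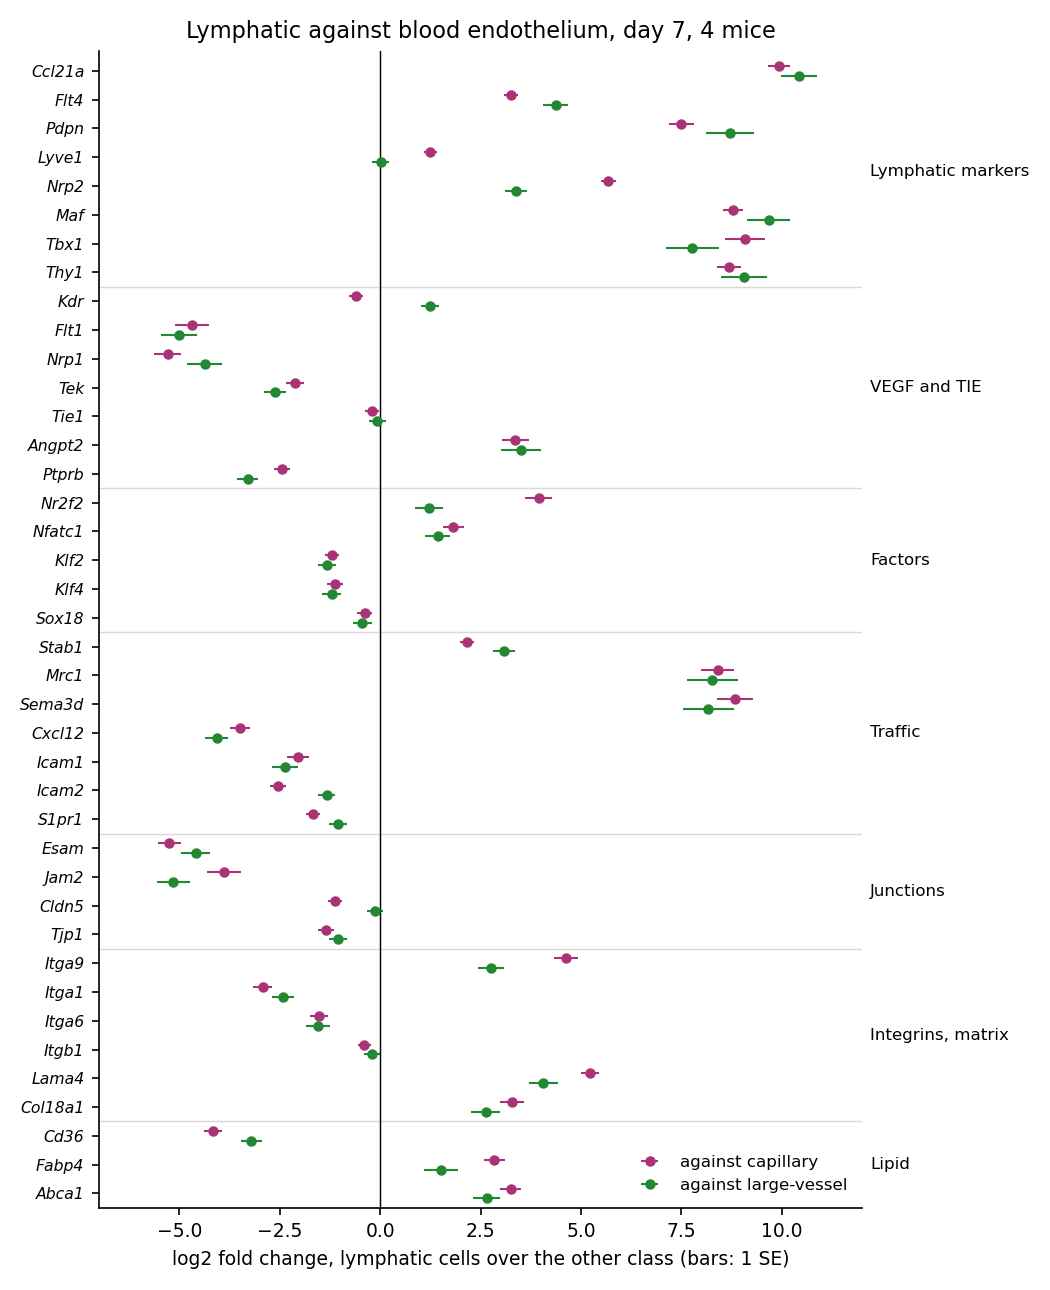
log2 fold change of lymphatic over capillary cells (purple) and over large-vessel blood endothelial cells (green) with 1 SE for genes of 7 roles, 4 day 7 mice. Nrp2 and Nrp1 lie on opposite sides at 5.68 and -5.29 against capillary cells, and Lyve1 lies at 0.01 against large-vessel cells.

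Among 13 lymphatic transcription factors tested against capillary cells, 5 were called higher (*Maf*, *Tbx1*, *Foxc2*, *Nr2f2* and *Nfatc1*) and 3 lower (*Gata2*, *Klf2* and *Klf4*). In that comparison 6.8% of all genes were called higher and 10.4% lower. *Nr2f2*, encoding COUP-TFII, a venous and lymphatic factor that works with PROX1, was 157 to 264 CPM against 5.33 to 19.1 CPM in capillary (3.95 ± 0.33) and 13.2 to 136 CPM in large-vessel cells (1.21 ± 0.34, adjusted p = 0.00643), a call that was lost without Itgb1 fl/fl mouse 1 (0.86, adjusted p = 0.0595). *Gata2*, needed for lymphatic valves, was 0 to 34.9 CPM against 125 to 262 CPM (-3.20 ± 0.36). The flow-responsive factors *Klf2* and *Klf4* were lower by 1.20 and 1.12, with *Klf2* at 908 to 1318 CPM against 1591 to 3065 CPM and the groups apart. *Klf4* fell short of 2-fold without Itgb1 iKO mouse 3 (-0.85). Falls of the size of *Klf2* and *Klf4* were also seen for epithelial genes. Of 15 collecting vessel and valve genes tested, 7 were called higher and 2 lower. *Itga9*, the integrin chain that builds valve leaflets, was 165 to 389 CPM against 9.55 to 13 CPM (4.63 ± 0.29), and *Gja1*, a connexin of valves, was 132 to 332 CPM against 5.33 to 7.59 CPM (5.13 ± 0.35).

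The valve genes were unevenly spread among the cells. *Foxc2* had a UMI in 38 and *Cldn11*, a claudin of lymphatic valve cells, in 24 of the 206 cells, and 9 cells had both. In the day 7 Itgb1 fl/fl library, 27 of 107 cells held either, and these had 4473 UMIs in the median against 2569.5 in the other 80. For the Itgb1 iKO library it was 18 of 62 cells, with 4228 against 2083 UMIs, so finding a UMI went with depth. *Gja4*, a connexin, was 434 CPM in the cells with valve genes (329 as lower bound of the 95% Poisson interval) and 186 CPM in the others in Itgb1 fl/fl, and 355 against 84.2 CPM in Itgb1 iKO. *Fn1*, fibronectin, was 205 against 91.3 CPM and 316 against 105 CPM. Other valve genes did not share this: *Itga9* was 259 against 331 CPM in Itgb1 fl/fl and 395 against 295 CPM in Itgb1 iKO, *Gata2* 7.61 against 22.8 CPM and 39.5 against 14 CPM, and *Celsr1* 15.2 against 26.6 CPM and 0 against 14 CPM. *Lyve1* was 2382 against 863 CPM in Itgb1 fl/fl and 1711 against 1333 CPM in Itgb1 iKO. *Ccl21a* was higher in the cells with valve genes too, 57530 against 40197 CPM and 55360 against 36449 CPM, and *Mmrn1* differed little (1864 against 1814 CPM, and 1909 against 1501 CPM). *Stab2* was 68.5 against 164 CPM in Itgb1 fl/fl and 79 against 77.1 CPM in Itgb1 iKO. These cells were picked after the values were seen, share their libraries and were not tested.

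Genes of leukocyte traffic showed both directions, with 9 of 27 tested called higher and 11 lower than in capillary cells, against 6.8% and 10.4% of all genes. Among the lower ones, *Cd44* and *Csf1* were not called when any 1 mouse was left out or with DESeq2 (adjusted p = 0.151 and 0.137). *Cd274* was not called without Itgb1 iKO mouse 3 (adjusted p = 0.209) or with DESeq2 (0.107). *Mrc1*, the mannose receptor, was 240 to 421 CPM in lymphatic cells against 0.225 to 1.55 CPM in capillary cells (8.40 ± 0.41) and 0 UMIs in large-vessel cells, and *Stab1* was 489 to 842 CPM against 121 to 151 CPM (2.17 ± 0.17). The semaphorin *Sema3d* was 275 to 330 CPM against 0 to 0.949 CPM (8.84 ± 0.44), and *Sema3a*, which guides dendritic cell entry, was 66.1 to 140 CPM against 0.901 to 2.44 CPM (5.86 ± 0.49). *Il7*, a survival factor for lymphocytes, was 69.8 to 143 CPM against 1.55 to 4.74 CPM (5.09 ± 0.47). *Cxcl1*, a neutrophil chemokine, was called higher (33, 122, 20 and 0 CPM against 1.27 to 18.7 CPM, 2.40 ± 0.65), a call that was lost without Itgb1 fl/fl mouse 2 (1.05, adjusted p = 0.523). *Icam1* was 110, 87.3, 89.9 and 25.3 CPM against 236 to 309 CPM (-2.05 ± 0.26), *Icam2* was 286 to 402 CPM against 1777 to 1957 CPM (-2.54 ± 0.19), and *Cxcl12* was 49.9 to 132 CPM against 534 to 1206 CPM (-3.48 ± 0.25). *Cx3cl1* had 0 UMIs in the 4 mice and 73.3 to 134 CPM in capillary cells, at least 12.5-fold lower. *Ackr4*, which scavenges CCL21 elsewhere in lymphatic beds, also had 0 UMIs against 11.9 to 24.5 CPM, at least 2.39-fold lower. *Ackr2*, the scavenger of inflammatory chemokines, was 132 to 279 CPM and was called higher than in large-vessel cells (2.27 ± 0.41) but not than in capillary cells (0.37 ± 0.22, adjusted p = 0.27). *S1pr1*, the sphingosine phosphate receptor, was lower (-1.67 ± 0.18).

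Antigen presentation genes were lower than in capillary cells. All 7 MHC class II genes tested were called, with *Cd74* at 1068, 541, 909 and 312 CPM against 1592 to 3246 CPM (-1.93 ± 0.18) and *H2-Aa* at 50.5 to 143 CPM against 363 to 801 CPM (-2.64 ± 0.25), and no member's call was on the higher side. The call of *Ciita* was lost with DESeq2 (adjusted p = 0.0695), without the replicate block (0.0615) and without Itgb1 iKO mouse 3 (0.0697). Against large-vessel cells 1 of 4 was called, *H2-Aa* (-1.86 ± 0.31). Of 39 MHC class I and interferon genes tested, 14 were called lower and 2 higher, where 10.4% and 6.8% of all genes were. *H2-D1* was 2919 to 3884 CPM against 5829 to 8160 CPM (-1.01 ± 0.17), a difference no larger than that of the epithelial gene *Sftpc*, and it missed the 2-fold limit without Itgb1 fl/fl mouse 1 (-0.96) or Itgb1 iKO mouse 3 (-0.98). The 2 higher genes were *Irf8*, a transcription factor known from myeloid cells (25.3 to 44.1 CPM against 2.48 to 7.32 CPM, 2.95 ± 0.65), and *Ifi27l2a*, an interferon-induced gene (143 to 698 CPM against 18.1 to 31.8 CPM, 3.50 ± 0.25). Of 18 NF-κB pathway genes tested, 13 were not called, 1 was called higher (*Nfkbie*) and 4 lower, where 17.2% of all genes were called. The 4 lower ones were the receptors *Tlr4*, *Il1r1* and *Tnfrsf1a* and the adaptor *Myd88*. *Tlr4*, the LPS receptor, was 0 to 17.5 CPM against 20.7 to 31.5 CPM (-2.42 ± 0.85, adjusted p = 0.0243). It was not called without Itgb1 fl/fl mouse 1 (adjusted p = 0.106), Itgb1 fl/fl mouse 3 (0.0536) or Itgb1 iKO mouse 3 (0.203). *Tlr4* was also not called with DESeq2 (adjusted p = 0.14). *Myd88* was not called without Itgb1 fl/fl mouse 1 (adjusted p = 0.25) or 3 (0.351), with DESeq2 (0.202) or its size factors (0.0522), with doublets left out (0.0838) or without the replicate block (0.0589).

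Of 14 junction genes tested against capillary cells 7 were called lower and 2 higher, and of 9 tested against large-vessel cells 3 were called lower, none higher and 6 were not called. Of all genes, 10.4% were called lower and 6.8% higher against capillary cells, and 13.1% and 8.59% against large-vessel cells. *Esam*, an adhesion molecule of endothelial tight junctions, was 0 to 69.8 CPM against 960 to 1282 CPM in capillary cells (-5.25 ± 0.29) and 765 to 960 CPM in large-vessel cells (-4.59 ± 0.37). *Jam2* was 0 to 30 CPM against 153 to 201 CPM (-3.89 ± 0.42) and 460 to 646 CPM (-5.15 ± 0.41), while *Jam3* was called higher than in capillary cells (2.07 ± 0.47). Of 29 integrin and matrix genes 14 were called higher and 8 lower than in capillary cells, and of 18 tested against large-vessel cells 7 were higher, 3 lower and 8 not called. *Lama4*, a laminin chain of vessel basement membrane, was 540, 419, 539 and 573 CPM against 9.01 to 16.7 CPM in capillary and 0 to 47.4 CPM in large-vessel cells (5.22 ± 0.23 and 4.06 ± 0.36). *Nid2* was 49.9 to 262 CPM against 1.91 to 3.11 CPM (5.64 ± 0.45) and *Col18a1* 152 to 275 CPM against 12.9 to 28.9 CPM (3.29 ± 0.29). The collagen and laminin receptor chains *Itga1* (75.8 to 105 CPM against 572 to 664 CPM, -2.92 ± 0.24) and *Itga6* (-1.52 ± 0.23) were lower, and their partner *Itgb1* was 782, 786, 979 and 1028 CPM against 986 to 1152 CPM and was not called (-0.39 ± 0.17, adjusted p = 0.0852). *Col1a1*, a fibroblast gene, was called higher only through mouse 1 of Itgb1 fl/fl (496 CPM against 0, 9.99 and 50.5 CPM in the other 3), and without it the log2 fold change was -0.51.

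Of 11 lipid handling genes tested, 3 were called higher and 4 lower than in capillary cells. For this and the lists that follow, the shares over all genes were 6.8% higher and 10.4% lower. *Cd36*, the fatty acid translocase, was 101 to 297 CPM against 2235 to 3180 CPM in capillary cells (-4.17 ± 0.22). *Fabp4*, a fatty acid binding protein, was 121 to 345 CPM against 14.2 to 101 CPM (2.84 ± 0.27), and *Abca1*, which exports cholesterol, was 211 to 319 CPM against 16.4 to 31.1 CPM (3.25 ± 0.27). Of 8 Notch genes 5 were lower and none higher, among them *Notch4* (0 to 20 CPM against 162 to 186 CPM, -3.78 ± 0.42) and its ligand *Dll4* (-1.55 ± 0.28). All 15 growth and mitosis genes were tested, and 1, *Ube2c*, was called, on the lower side, a call that was lost without Itgb1 iKO mouse 3 (-0.27, adjusted p = 0.811). Of 14 immediate early and heat shock genes 4 were lower and 1 higher, and of 8 clock genes 1 was called in each direction.

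Genotype was compared within lymphatic cells at day 7 after LPS, which asks whether loss of *Itgb1* in AT2 cells went with a change in lymphatic cells. The planned minimum of 10 cells left a single Itgb1 iKO mouse, so mice with at least 5 cells were used, 23, 16 and 26 cells in Itgb1 fl/fl against 8, 8 and 24 in Itgb1 iKO, with 20415 to 118705 UMIs a mouse. Of 1456 genes tested, 2 were called (0.137%), 1 in each direction (0.0687% each), with 77 at an unadjusted p under 0.05. One was *Xist*, which belongs to a difference of sex: all 3 Itgb1 fl/fl mice had *Xist* at 291 to 317 CPM over all their cells and no Y-linked UMIs, and the 3 Itgb1 iKO mice had *Xist* at 0 to 0.299 CPM and Y-linked genes at 147 to 157 CPM, so sex and genotype cannot be told apart here. The other was *Tuba1a*, an alpha tubulin, at 121, 87.3 and 89.9 CPM in Itgb1 fl/fl and 652, 980 and 901 CPM in Itgb1 iKO (3.1 ± 0.35, adjusted p = 6.68e-06). Capillary cells of the same mice gave 129 to 140 CPM and 960 to 1033 CPM (2.87 ± 0.08), and the contrasts of the 2 classes differed by 0.02 ± 0.49 (adjusted p = 1). The rise in *Tuba1a* was therefore shared with capillary cells, in which 2.37% of 11085 genes were called (1.61% higher and 0.767% lower). The comparisons in lymphatic and capillary cells share mice and libraries.

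No tested member of the gene lists was called between genotypes in lymphatic cells, but many members had too few counts to be tested. All 13 lymphatic markers outside the gate were tested. Of the growth and mitosis, clock and Notch lists, 0 of 15, 0 of 10 and 0 of 9 genes were tested. For NF-κB and MHC class II it was 3 of 20 and 1 of 8. *Ccl21a* in lymphatic cells was 52266, 64382 and 39601 CPM in Itgb1 fl/fl and 41489, 52412 and 35441 CPM in Itgb1 iKO (-0.21 ± 0.49). *Flt4* was 562, 716 and 629 CPM against 696, 441 and 615 CPM (-0.06 ± 0.31), and *Lyve1* 980, 1938 and 1737 CPM against 2174, 2253 and 1061 CPM (0.26 ± 0.37). *Itgb1* was 782, 786 and 979 CPM against 1000, 490 and 1028 CPM (0.07 ± 0.32). The groups overlapped for each of these 4 genes. Of the 14 MHC class I and interferon genes tested, 2 were higher and 12 lower in Itgb1 iKO with a median log2 fold change of -0.67 against 0.01 over all genes, and none was called. *B2m*, the MHC class I light chain, was 1245, 1589 and 1658 CPM against 478, 980 and 851 CPM without overlap (-0.91 ± 0.33, adjusted p = 0.75). In capillary cells it was 2344 to 2489 CPM against 1599 to 2084 CPM (-0.42 ± 0.11, adjusted p = 0.0762). All 40 genes of the list were tested there, with a median of 0.01. The medians of the classes cover different sets of genes and cannot be set against each other. *Ccl21a* itself was called lower in capillary cells of Itgb1 iKO (-0.73 ± 0.10, adjusted p = 0.00589), where its part from free RNA was not tested.

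**Figure D5:**
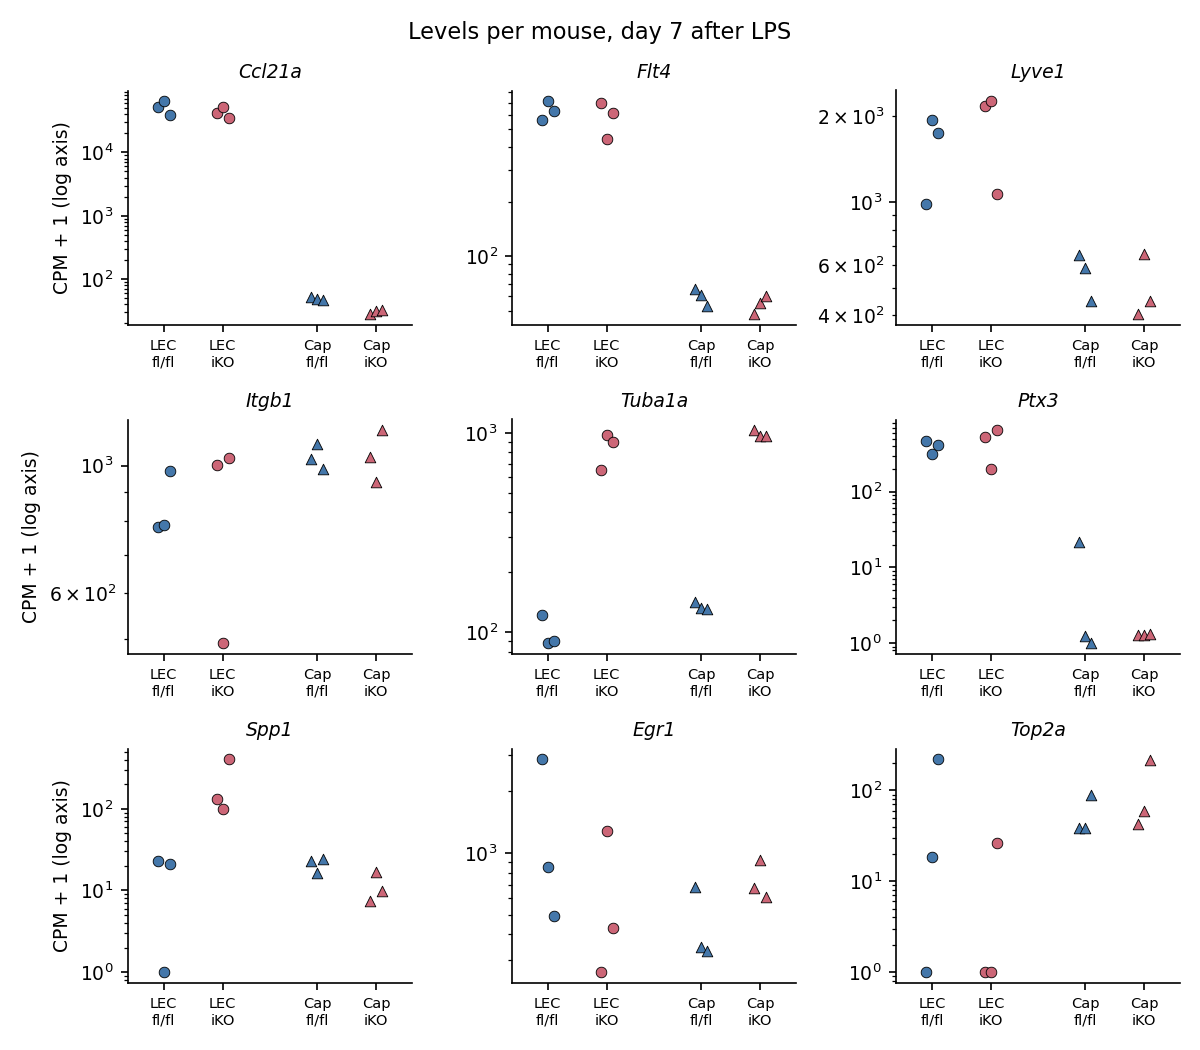
CPM plus 1 on log axes in lymphatic (LEC, circles) and capillary (Cap, triangles) cells of each day 7 LPS mouse, Itgb1 fl/fl in blue and Itgb1 iKO in red. Tuba1a is higher in all 3 Itgb1 iKO mice in both classes, while Ccl21a, Flt4, Lyve1 and Itgb1 overlap between genotypes in lymphatic cells.

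The difference between the genotype contrasts of lymphatic and capillary cells was tested gene by gene in the same 6 mice. Of 9783 genes, 7 were called (0.0716%), 2 toward higher (0.0204%) and 5 toward lower values (0.0511%) in lymphatic cells, and DESeq2 called 0 of them (169 genes at an unadjusted p under 0.05, against 459 with edgeR). *Spp1*, encoding the secreted phosphoprotein osteopontin, was 22, 0 and 20 CPM in Itgb1 fl/fl and 130, 98 and 404 CPM in Itgb1 iKO lymphatic cells, without overlap, and 15.3 to 23.2 CPM against 6.41 to 16 CPM in capillary cells. The lymphatic cells of Itgb1 iKO mice 1 and 2 held only 22994 and 20415 UMIs of all genes. Their *Spp1* values therefore rest on few UMIs, and so does the lack of overlap. The *Spp1* contrasts differed by 4.99 ± 0.74 (adjusted p = 1.41e-07), and without Itgb1 iKO mouse 3 by 3.4 (adjusted p = 0.583). *Egr1*, an immediate early gene that dissociation can induce, was 2875, 855 and 489 CPM against 261, 1274 and 430 CPM, overlapping, and 332 to 685 CPM against 610 to 920 CPM in capillary cells (-1.87 ± 0.42, adjusted p = 0.0181), and was not called without Itgb1 fl/fl mouse 1 (adjusted p = 1), Itgb1 fl/fl mouse 2 (0.198) or Itgb1 iKO mouse 1 (0.11), or with doublets left out (0.222). *Ptx3*, the long pentraxin of innate immunity, was 463, 314 and 409 CPM against 522, 196 and 649 CPM in lymphatic cells, so it did not separate the genotypes there. In capillary cells Itgb1 fl/fl mouse 1 had 20.9 CPM and the other 5 mice 0 to 0.318 CPM, and *Ptx3* was not called without that mouse (-0.83) or without Itgb1 iKO mouse 3 (2.95, adjusted p = 0.583).

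The 4 remaining genes, *Top2a*, *Cenpf*, *Ube2c* and *Hist1h2ap*, serve DNA replication and mitosis. None of them was called without Itgb1 fl/fl mouse 3 (adjusted p = 1 each), without Itgb1 iKO mouse 3 (adjusted p = 0.627, 0.786, 0.787 and 0.73 in that order) or with doublets left out. *Top2a* was 0, 17.5 and 220 CPM in Itgb1 fl/fl and 0, 0 and 25.3 CPM in Itgb1 iKO lymphatic cells. Of 107 and 62 lymphatic cells, 7 and 4 had a UMI of *Mki67* or *Top2a* (6.54% and 6.45%), and of capillary cells 6.59% and 10.5%. The 10.5% rested on Itgb1 iKO mouse 3, in which it was 20.3% of capillary cells, against 5.75% and 6.73% in Itgb1 iKO mice 1 and 2. In the 5 PBS, 22 day 21 Itgb1 fl/fl and 10 day 21 Itgb1 iKO lymphatic cells there was none, as few cells could show. Cells with at least 5 UMIs of the 15 growth and mitosis genes were 6 of 107 and 2 of 62, and Itgb1 fl/fl mouse 3 had 2 of them among 26 cells, 1 with 77 UMIs.

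The contrasts of LPS against PBS and of the genotypes at day 21 could not be tested, since no PBS or day 21 mouse reached 5 lymphatic cells, and the values are given by library with 95% Poisson intervals. These intervals cover counting error only and leave out the spread between mice and cells. *Ptx3* was 393 CPM (334 to 460) and 535 CPM (443 to 642) at day 7 in LPS Itgb1 fl/fl and Itgb1 iKO, 195 CPM (23.7 to 706) in PBS, which is 2 UMIs, and 20.7 CPM (0.524 to 115) and 47.5 CPM (1.2 to 265) at day 21, 1 UMI each. *Lyve1* was 1369, 1464, 2246, 2957 and 2282 CPM in the 5 libraries. The PBS value (1424 to 3370) is 23 UMIs, of which 22 were in 1 of the 5 cells. The day 21 intervals of 2492 to 3483 and 1683 to 3026 CPM lay above those of day 7 LPS (1256 to 1490 and 1308 to 1634 CPM). The day 7 *Lyve1* values by mouse given above ran wider than the day 7 intervals in both genotypes. Some of them lay within the day 21 Itgb1 iKO interval, so the intervals do not separate the time points. *Reln*, a gate gene, was 520 and 549 CPM at day 7 after LPS and 1055 and 1236 CPM at day 21. Its UMIs chose the cells, and the day 21 cells held fewer UMIs (median 2017 and 1824.5 against 3094 and 2551.5), so its levels are no measure of a change. *Icam1* was 65.9 CPM (43.1 to 96.6) and 36.6 CPM (15.8 to 72.1) at day 7 after LPS, 0 UMIs in PBS and 372 CPM (221 to 588) and 190 CPM (51.8 to 487) at day 21. *Il33*, an alarmin, was 10.1 and 36.6 CPM at day 7 after LPS and 145 and 95.1 CPM at day 21, on 7 and 2 UMIs. The last 3 genes and *Lyve1* were chosen after their values were seen. The time points differed in the sort, and no test was made between them.

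By abundance, the leading genes of day 7 lymphatic cells that are neither mitochondrial nor ribosomal proteins were *Ccl21a*, *Malat1*, *Gm42418*, *Gm21541*, *Selenop*, *Tmsb10*, *Fth1*, *Vim*, *Actb* and *H2-D1*. *Gm42418* probably counts ribosomal RNA. *Selenop*, a secreted selenium carrier, was 6775, 3770, 10742, 3329 and 4279 CPM in the 5 libraries against 2376, 2119, 3285, 2474 and 2115 CPM in capillary cells, and *Fth1*, ferritin heavy chain, was 3846, 4319, 3125, 6638 and 6134 CPM against 1135 to 1276 CPM. Over 15 sums of class and library and 4161 genes, the genes most like *Mmrn1* were *Prox1*, *Reln*, *Slc45a3*, *Gpm6a* and *Slco2b1*, with Pearson r of log2(CPM + 1) from 0.993 to 0.996. The 15 points share libraries and the gate, so the values describe the pattern and are no test.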

How the data were processed

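Lung cells were counted in 5 libraries, 1 for each condition. The deposited values are raw UMI counts per gene and hashtag antibody for each barcode, which the authors obtained with Cell Ranger 3.1 and mm10 from 5′ libraries. They later corrected for free RNA and removed doublets, steps not reflected in these counts. The submitters' processing notes also name Seurat 4.1.0. 5′ UMIs count molecules, so levels were not divided by gene length.

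Barcodes under 700 genes, or outside 0.1 to 15% mitochondrial UMIs, were dropped. Capillary cells had at least 2 UMIs of *Gpihbp1* and *Car4*, large-vessel cells at least 2 of *Vwf* and at most 1 of the capillary genes. Both also had a UMI of *Pecam1* or *Cdh5* and none of the lymphatic or excluded lineage genes. Hashtags with 1% or more of a library's tag counts were used. A tag was called present at 10 or more counts and 4-fold over background, and cells with exactly 1 tag were assigned to that mouse. Counts summed per mouse and class were tested with edgeR 4.0.16 in R 4.3.3 (TMM, filterByExpr, quasi-likelihood test, Benjamini-Hochberg, mouse as a block between classes), and with DESeq2 1.42.0 as an alternative. The p-values rest on the spread between hashtagged mice of the same library, which edgeR estimates with information shared across genes. They do not rest on each gene's own spread over mice alone, and *Col1a1* and *Cxcl1* were called through 1 mouse each. The SE of a log2 fold change is its absolute value divided by the square root of the quasi-likelihood F statistic. It thus restates that test and is not the spread of the fold change over mice. The planned minimum of 10 cells a mouse was lowered to 5 for the genotype contrasts after the cell numbers were seen. A term for sex could not be fitted, since sex and genotype coincide. Doublets were kept. Scrublet in scanpy 1.11.5 marked 0 to 1.55% of cells by its own threshold, so the highest scores, 0.8% per 1000 barcodes, were left out as an alternative. Intervals and permutation tests used python 3.11.15, scipy 1.17.1, numpy 2.4.6 and pandas 2.3.3. Of the genes listed, 99.9% matched GENCODE M21 on GRCm38. Promoter windows were from RefSeq, and 9 of the 12 genes highest against capillary cells had one.

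On simulated data the class comparison recovered 48 of 100 genes changed by a log2 fold change of 1 and 99 of 100 changed by 2, with 5 false calls over 9846 genes. The genotype comparison recovered 54 and 98 with 3 false calls over 1377 genes, and the difference of contrasts 6 and 58 with 0 false calls over 9659 genes. The changes were placed only in genes with more than 5 expected counts in the smallest sum. All genes were given the same spread, and the 2-fold limit was not applied. Recovery for genes with fewer counts or with the spread of the real data was not tested.

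The gate, the gene lists and their members were chosen with earlier results of these data known. Genes were named as members of the lists, as the 12 highest and 12 lowest called genes against capillary cells at 100 CPM or more, as all called genes of the genotype contrast at 30 CPM or more (sex-linked genes only as a check) and up to 8 of the difference of contrasts, as the 10 most abundant genes and as the 5 most like *Mmrn1*. Other alternatives were DESeq2 size factors, no filter on low counts, a stricter gate of 3 UMIs, no replicate block, and leaving out each mouse.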

Additional observations from a re-analysis of the deposited data

Results flagged for a closer look

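For 7 genes the genotype contrast in lymphatic cells differed from that in capillary cells of the same mice by the test of the difference itself (edgeR, adjusted p under 0.05, 3 against 3 mice), which singled them out. The log2 difference was 4.99 for *Spp1*, 3.7 for *Ptx3*, -1.87 for *Egr1*, -3.67 for *Top2a*, -4.72 for *Hist1h2ap*, -10.89 for *Ube2c* and -11.16 for *Cenpf*. The values for *Ube2c* and *Cenpf* come from 0 UMIs in the lymphatic cells of all 3 Itgb1 iKO mice, so they are no measure of size. *Spp1* did not overlap between genotypes in lymphatic cells (0 to 22 CPM against 98 to 404 CPM), and was not called without Itgb1 iKO mouse 3 (adjusted p = 0.583) or with DESeq2 (adjusted p = 0.233). The *Spp1* values of Itgb1 iKO mice 1 and 2 come from 8 lymphatic cells each and rest on few UMIs. With the highest doublet scores left out, 2 of the 7 were still called, *Spp1* and *Ptx3*.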

How the results depend on the processing

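Of the counts of called genes and the shares, 118 values under alternatives stayed within the limits set for them, 15 moved and 3 changed direction. Against large-vessel cells, testing without a filter on low counts called 493 genes higher and 632 lower, in place of 201 and 306, over 13366 genes in place of 2340. Against capillary cells, the higher share of calls was 39.5%, and 48.3% with the DESeq2 test. In the genotype contrast 5 genes were called higher without the filter and 2 with DESeq2, in place of 1, and leaving out 1 mouse gave 1 to 5 higher and 1 to 3 lower, the most without Itgb1 iKO mouse 3. In the difference of contrasts, DESeq2 called 0 higher and 0 lower, and with doublets left out 1 was lower in place of 5. Leaving out 1 mouse gave 2 to 6 lower (2 without Itgb1 fl/fl mouse 3), and without Itgb1 iKO mouse 3 the 9 called genes shared 1 with the 7. The day 7 share difference, -0.159 percentage points, ran from -0.740 to 0.143 when 1 mouse was left out, and was above 0 without Itgb1 iKO mouse 1 (0.119), Itgb1 iKO mouse 2 (0.143) or Itgb1 fl/fl mouse 3 (0.0574). *Col1a1* ran from -0.51 without Itgb1 fl/fl mouse 1 to 2.39. *Ptx3* ran from -0.83 without Itgb1 fl/fl mouse 1 to 4.54. *Hist1h2ap* ran from -5.68 to 5.04 without Itgb1 fl/fl mouse 3, and was 5.41 with doublets left out. The cause was not tested. Classes of the same mouse are paired, and without the replicate block 1752 genes were called against capillary cells (1644 of them among the 1725) and 504 against large-vessel cells. No paired analysis was possible between conditions because their numbers name different mice. The 10-cell minimum for genotype and gene tests of LPS against PBS and at day 21 were not run, as too few cells were found per mouse. In the genotype fit, 2 of the 6 mice had 8 lymphatic cells each.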
